A study of Homo sapiens with 18 samples.

Results

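The expression of 9 genes of the inflammatory caspase and pyroptosis pathway, CASP1, CASP4, CASP5, CARD16, GSDMD, PYCARD, NLRP1, AIM2 and IL18, was followed after ACAT1 knockdown in bladder cancer (BLCA) cells. They are 9 of the 39496 genes of the count table. CASP1 was chosen by its log2 fold change, among the largest rises after knockdown, and the other 8 were chosen for their place in the same pathway. In the mean of the 4 comparisons of an ACAT1 siRNA with its control, CASP1 stood at place 7 by log2 fold change among the 22 genes called higher, and at place 98 of 1198 when replicate numbers were fitted as a block. The rise of CASP1 is therefore described without a test, and so is the change of CARD16 against the control, a neighbour of CASP1 that is almost identical to it over one exon.

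The cells were UM-UC-3 and T24, a pair of established human lines of transitional cell bladder cancer, both labelled as wild type. Each line was transfected with a negative control siRNA (siNC) or with siACAT1-1 or siACAT1-2, a pair of siRNAs of different sequence against ACAT1, the mitochondrial acetyl-CoA acetyltransferase. The 6 groups held 3 libraries each, from independent experiments according to the series description. Each library held 25163490 to 34417230 reads counted on genes. ACAT1 itself was at 44.1 to 47.4 RPKM with siNC and 1.83 to 3.59 RPKM with an ACAT1 siRNA in UM-UC-3 cells, and at 14.6 to 17.1 and 0.671 to 1.46 RPKM in T24 cells. Of 10 urothelial and epithelial marker genes, 4 stayed under 1 RPKM in all 18 libraries. In UM-UC-3 cells KRT19, EPCAM and PPARG stayed under 1 RPKM as well (at most 0.172, 0.111 and 0.448 RPKM). The sum of the 10 was 130 to 210 RPKM in UM-UC-3 and 301 to 1099 RPKM in T24 cells. In UM-UC-3 the highest of them were KRT18 and KRT8, at medians of 108 and 31.4 RPKM. Of 9 measured leukocyte and macrophage markers, 8 stayed under 1 RPKM in every library, and the ninth was CD68, which many cell types carry in their lysosomes.

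Pyroptosis is a lytic, inflammatory form of cell death. Sensors such as NLRP1 and AIM2 recognise danger signals and assemble inflammasomes, often through the adaptor ASC, the product of PYCARD, and inflammasomes activate the protease caspase-1. Caspase-1 matures the cytokines IL-1β and IL-18 and cleaves gasdermin D, whose fragment opens pores in the plasma membrane, while caspase-4 and caspase-5 sense bacterial lipopolysaccharide in the cytosol and cleave gasdermin D directly. All of these proteins are regulated by cleavage and assembly, which RNA levels do not measure, and in bulk RNA a change in RNA per cell and a change in the share of cells that express a gene cannot be told apart.

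CASP1, CASP4, CASP5 and CARD16 lie in one cluster on chromosome 11 of GRCh38, all on the minus strand. In the deposited annotation CASP4 spans 104942866 to 104969436, CASP5 spans 104994235 to 105023168, CASP1 spans 105025443 to 105035250 and CARD16 spans 105041326 to 105101431. CARD16 encodes a CARD-only protein, made of the caspase recruitment domain that caspase-1 uses to join an inflammasome, without a protease domain, and is known as a regulator of caspase-1. The exons of CASP1 (3698 bases) and of CARD16 (1688 bases) shared 0 bases in the start and end columns of the table, and CARD16 shared 24 bases (1.42%) with its other neighbour CARD17. The 2 genes nevertheless hold near-identical exons. Exon 2 of both, which is coding, is shown because it holds the longest identical run between the exons of CASP1 and CARD16 (144 bases). Other exons were not aligned one by one. The sequences are from GRCh38, minus strand, at chr11:105034208-105034474 for CASP1 and chr11:105044392-105044658 for CARD16, with the 3 bases that differ in capitals.
CASP1 exon 2: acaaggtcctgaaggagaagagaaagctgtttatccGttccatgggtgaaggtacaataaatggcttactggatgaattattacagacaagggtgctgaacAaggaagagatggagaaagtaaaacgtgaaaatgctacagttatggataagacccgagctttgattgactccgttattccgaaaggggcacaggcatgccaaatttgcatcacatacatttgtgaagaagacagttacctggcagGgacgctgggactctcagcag
CARD16 exon 2: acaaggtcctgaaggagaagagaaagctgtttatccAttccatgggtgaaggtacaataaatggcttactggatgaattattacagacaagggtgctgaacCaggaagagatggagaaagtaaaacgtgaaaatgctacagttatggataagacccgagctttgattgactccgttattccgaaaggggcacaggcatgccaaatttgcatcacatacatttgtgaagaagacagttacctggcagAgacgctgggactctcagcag

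Counted from 1 at the 5′ end of the exon, with the base of CASP1 first, the differences are G37A, A102C and G247A, so the exons are identical at 98.9% of 267 bases and over one run of 144 bases. Over all exons, the identical stretches are a small share of either gene. Of all windows of 100 bases, 52 occur in both genes, which is 1.77% of the windows of CASP1 and 3.99% of those of CARD16, and of windows of 50 bases 168 are shared (5.08% and 11.4%). CASP4 and CASP5 share no window of 100 bases and 10 windows of 50 bases (0.145% and 0.941%), and their longest identical run is 59 bases. How the counting treated reads that fit more than one place is not given in the sources used here. The split of reads between CASP1 and CARD16 carries this limit, and so do the few reads of CASP5. When the counts of both genes were summed into one feature, the value kept the direction of CASP1 in all 8 comparisons. Over the 18 libraries CASP1 held 5942 counts and CARD16 981, so the sum mostly follows CASP1 and does not check the split. The summed feature was not called between the siRNAs (log2 difference 0.32, adjusted p = 0.292, edgeR quasi-likelihood test) or between the lines at baseline (-0.0075, adjusted p = 0.981). CARD16 counted as a separate feature was called in both of these contrasts.

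**Figure D1:**
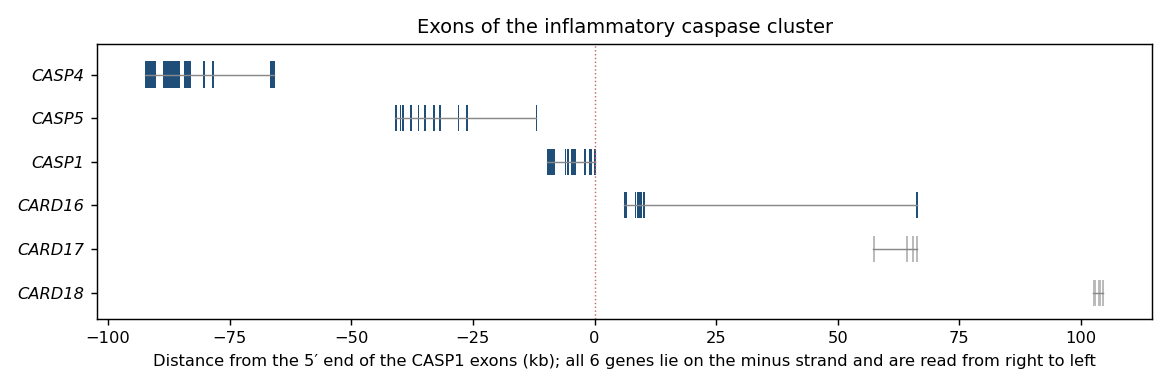
The exons of CASP4, CASP5, CASP1 and CARD16 (dark) and of CARD17 and CARD18 (grey) as boxes along chromosome 11, with the horizontal axis in kb from the 5′ end of the CASP1 exons and one row per gene (the shortest exons are drawn wider than they are, so that they can be seen). The rows of CASP1 and CARD16 do not overlap, while CARD16 reaches into CARD17 and shares 24 exon bases with it.

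CASP1 was expressed at a low level in both lines and was higher after knockdown, with larger estimates in T24 than in UM-UC-3 cells. In UM-UC-3 cells it was at 1.13, 1.70 and 1.99 RPKM in replicates 1, 2 and 3 with siNC, at 1.79, 2.24 and 2.18 RPKM with siACAT1-1 and at 2.18, 3.23 and 2.72 RPKM with siACAT1-2. In T24 cells it was at 2.03, 2.34 and 1.89 RPKM with siNC, at 5.13, 3.62 and 5.61 RPKM with siACAT1-1 and at 4.91, 5.11 and 5.60 RPKM with siACAT1-2. The 6 knockdown libraries of T24 were all above the 3 control libraries, and so were the 3 siACAT1-2 libraries of UM-UC-3, while siACAT1-1 overlapped with siNC in UM-UC-3. Over all genes tested, 1.42% were without overlap above siNC with both siRNAs in T24 and 7.4% with siACAT1-2 in UM-UC-3. These shares are given only as background, since CASP1 was chosen for this rise.

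In the model of all 18 libraries, the log2 fold change of CASP1 in UM-UC-3 cells was 0.37 (standard error, SE, 0.23) with siACAT1-1. It was 0.72 (SE 0.23) with siACAT1-2. In T24 cells it was 1.22 (SE 0.23) with siACAT1-1 and 1.34 (SE 0.23) with siACAT1-2, which corresponds to 2.32-fold and 2.53-fold higher counts. The mean of the 4 values was 0.91 (SE 0.14), against a median of -0.0013 over all genes. Each pair of comparisons in one line shares its 3 siNC libraries, so the values within a line are not independent of each other. When each knockdown library was set against the siNC library of its line with the same replicate number, CASP1 was higher in 12 of 12 pairs, by 0.16 to 0.90 on the log2 scale in UM-UC-3 and by 0.65 to 1.61 in T24 cells (1.66% of all genes tested were higher in 12 of 12).

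The choice of CASP1 did not use the contrasts between lines and between siRNAs, which were therefore tested. The knockdown effect on CASP1 was 0.74 lower on the log2 scale in UM-UC-3 than in T24 cells (log2 difference -0.74, SE 0.28), with an adjusted p of 1.00 (unadjusted p = 0.0174) from the edgeR quasi-likelihood test (Benjamini-Hochberg) over 20144 genes. With the replicate number as a block the difference was -0.71 and its adjusted p 0.220, so a difference between the lines was not established for CASP1. Of the 8 tested members, 0 were called in this contrast, where edgeR called 0% of all genes without the block and 0.104% with it. Unadjusted p-values under 0.05 numbered 517 over all genes, and DESeq2 called 1 gene. The siRNAs differed by 0.24 (SE 0.16, siACAT1-2 minus siACAT1-1, adjusted p = 0.499). At baseline, CASP1 was at 1.61 ± 0.436 RPKM (SD, n = 3) in UM-UC-3 and 2.09 ± 0.231 RPKM (SD, n = 3) in T24 cells, and this difference of -0.33 on the log2 scale (SE 0.23) did not pass the test (adjusted p = 0.255).

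**Figure D2:**
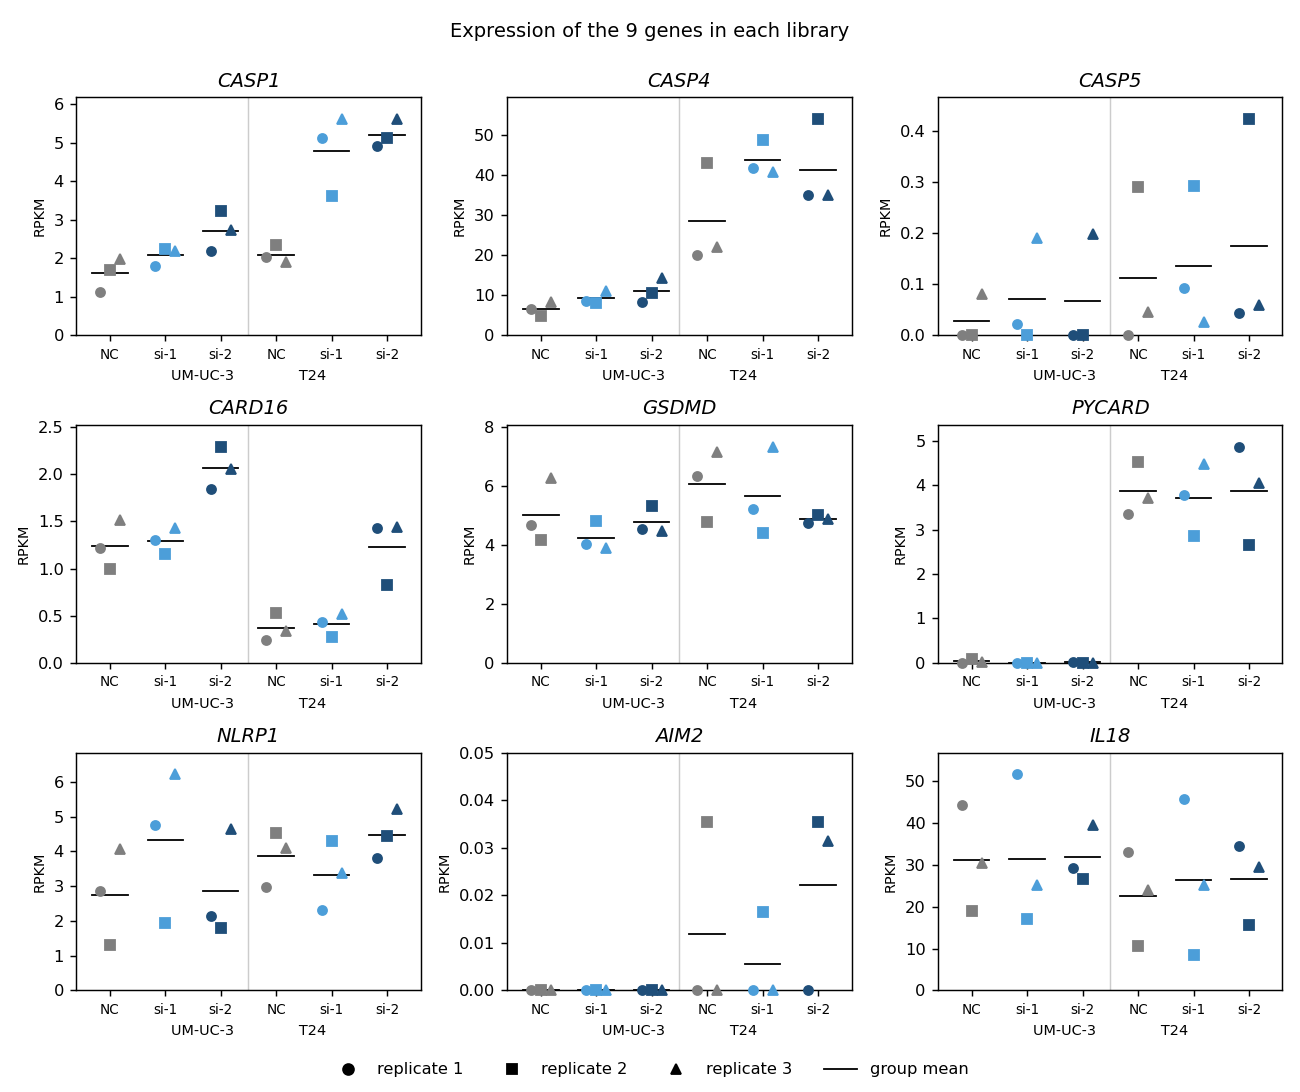
Each panel plots the deposited RPKM of one gene on a linear axis from 0, by siRNA (NC, siNC; si-1, siACAT1-1; si-2, siACAT1-2) for UM-UC-3 on the left and T24 on the right, with a symbol per library and a bar at the mean of 3. CASP1 in T24 was at 1.89 to 2.34 RPKM with siNC and at 3.62 to 5.61 RPKM with the ACAT1 siRNAs, CARD16 was above siNC without overlap in the siACAT1-2 groups of both lines, and PYCARD was at 0 to 0.0750 RPKM in every UM-UC-3 library.

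CARD16 was higher with siACAT1-2 and close to the control with siACAT1-1, in both lines. UM-UC-3 cells were at 1.22, 0.997 and 1.52 RPKM in replicates 1, 2 and 3 with siNC, at 1.30, 1.16 and 1.43 RPKM with siACAT1-1 and at 1.85, 2.29 and 2.06 RPKM with siACAT1-2. The T24 libraries were at 0.241, 0.525 and 0.338 RPKM with siNC, at 0.438, 0.275 and 0.518 RPKM with siACAT1-1 and at 1.43, 0.820 and 1.44 RPKM with siACAT1-2. With siACAT1-2 all 3 libraries of a line were above all 3 siNC libraries of that line, and with siACAT1-1 the libraries overlapped with siNC (5.68% and 7.4% of all genes were above siNC without overlap with siACAT1-2 in T24 and UM-UC-3). These values rest on few reads, 14 to 25 counts per library with siNC and 39 to 77 with siACAT1-2 in T24 cells. The log2 fold change against siNC was 0.062 (SE 0.31) for siACAT1-1 and 0.70 (SE 0.31) for siACAT1-2 in UM-UC-3, and 0.18 (SE 0.35) and 1.78 (SE 0.34) in T24 cells.

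The difference between the siRNAs was tested on its own, since the choice of the genes did not use it. CARD16 was 2.17-fold higher with siACAT1-2 than with siACAT1-1 over both lines (log2 difference 1.12, SE 0.23, adjusted p = 0.0163, edgeR quasi-likelihood test, Benjamini-Hochberg). It was the 1 of 8 tested members called in this contrast, where 2.56% of all genes were called (20.6% with the block). The call was lost when any 1 of 3 libraries was left out, and it held in the other 15 such fits. The 3 fits gave an adjusted p of 0.0530 without replicate 1 of siACAT1-1 in UM-UC-3, 0.0546 without replicate 2 of siACAT1-2 in UM-UC-3 and 0.0520 without replicate 1 of siACAT1-2 in T24. ACAT1 itself was also lower with siACAT1-2 than with siACAT1-1 (log2 difference -0.62, SE 0.15, adjusted p = 0.0340), and whether this moves CARD16 was not tested. CARD16 and CASP1 summed into one feature gave 0.32 (adjusted p = 0.292) and was not called. CASP1 holds most of its reads and was itself not called in this contrast (adjusted p = 0.499). CARD16 counts per 100 CASP1 counts were 7.95 ± 2.42 (SD, n = 3) with siNC, 3.86 ± 0.376 (SD, n = 3) with siACAT1-1 and 10.8 ± 3.07 (SD, n = 3) with siACAT1-2 in T24 cells. In UM-UC-3 cells they were 36.9 ± 11.4, 28.9 ± 4.86 and 35.2 ± 3.18 (SD, n = 3 each).

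CASP4, which encodes the lipopolysaccharide-sensing caspase-4, was the most abundant of the caspases and, like CASP1, had an estimate above 0 in all 4 comparisons. The UM-UC-3 libraries were at 6.61, 4.90 and 8.32 RPKM in replicates 1, 2 and 3 with siNC, at 8.42, 7.97 and 11.1 RPKM with siACAT1-1 and at 8.31, 10.5 and 14.3 RPKM with siACAT1-2. T24 cells were at 20.1, 43.0 and 22.0 RPKM with siNC, at 41.8, 48.6 and 40.6 RPKM with siACAT1-1 and at 35.1, 53.9 and 34.9 RPKM with siACAT1-2. Groups overlapped in all 4 comparisons, and replicate 2 of T24 and replicate 3 of UM-UC-3 were the highest of their group with every siRNA. Against the siNC library with the same number, however, CASP4 was higher in 12 of 12 pairs, by 0.20 to 1.06 on the log2 scale, as were 1.66% of all genes tested.

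The log2 fold change of CASP4 was 0.47, 0.70, 0.65 and 0.57 (SE 0.26 each) with siACAT1-1 and siACAT1-2 in UM-UC-3 and with siACAT1-1 and siACAT1-2 in T24 cells. The mean of the 4, 0.60 (SE 0.16), a 1.51-fold change, had an adjusted p of 0.166 without the block. With the replicate number as a block the mean was 0.62 (SE 0.089) and passed the test (adjusted p = 1.7e-04), as it did with DESeq2 (adjusted p = 0.0385), without the filter on low counts (0.0037) and without replicate 2 of T24 siNC (0.0220). The block also brought a call with siACAT1-2 in UM-UC-3 (adjusted p = 0.0159) and with both siRNAs in T24 cells (0.0024 and 0.0102), and not with siACAT1-1 in UM-UC-3 (0.0732). Neither the difference between the lines (-0.022, SE 0.32, adjusted p = 1.00) nor that between the siRNAs (0.073, SE 0.19, adjusted p = 0.914) passed the test for CASP4.

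CASP5, which encodes the other lipopolysaccharide-sensing caspase, was close to the limit of detection. Its counts in replicates 1, 2 and 3 of UM-UC-3 cells were 0, 0 and 4 with siNC, 1, 0 and 9 with siACAT1-1 and 0, 0 and 9 with siACAT1-2. In T24 cells they were 0, 13 and 2 with siNC, 4, 14 and 1 with siACAT1-1 and 2, 19 and 3 with siACAT1-2. The highest count of every group fell in the same replicate, replicate 3 in UM-UC-3 and replicate 2 in T24 cells, which are also the replicates in which CASP4 was highest. The knockdown effect was not detectable at this depth (mean log2 fold change 0.87, SE 0.99, adjusted p = 0.827).

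**Figure D3:**
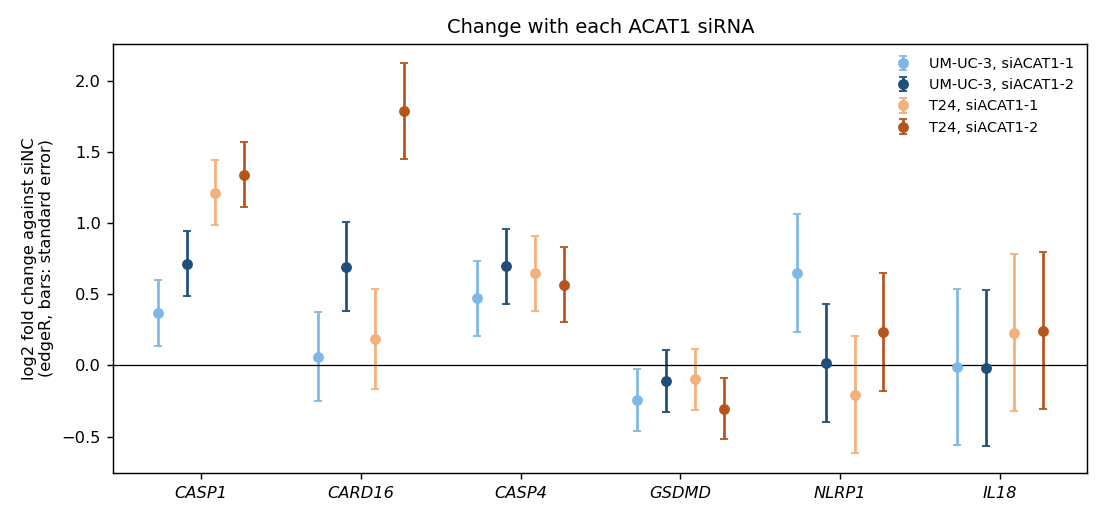
Log2 fold change of each gene with each ACAT1 siRNA against siNC of the same line, from the edgeR model of all 18 libraries (points, estimates; bars, standard error). CASP1 and CASP4 were above 0 in all 4 comparisons, CARD16 stood at 0.70 and 1.78 with siACAT1-2 and at 0.062 and 0.18 with siACAT1-1, GSDMD ran from -0.30 to -0.097, NLRP1 from -0.20 to 0.65 and IL18 from -0.016 to 0.25.

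Among the sensors, NLRP1 was expressed and AIM2 was not detected beyond single reads. NLRP1, which forms an inflammasome when its N-terminal part is degraded, was at 2.86, 1.30 and 4.08 RPKM in replicates 1, 2 and 3 of UM-UC-3 cells with siNC, at 4.77, 1.95 and 6.22 RPKM with siACAT1-1 and at 2.15, 1.80 and 4.64 RPKM with siACAT1-2. T24 cells were at 2.98, 4.54 and 4.10 RPKM with siNC, at 2.30, 4.31 and 3.39 RPKM with siACAT1-1 and at 3.80, 4.44 and 5.21 RPKM with siACAT1-2. All groups overlapped with their controls, and within UM-UC-3 cells replicate 2 was the lowest and replicate 3 the highest with each of the 3 siRNAs. The mean log2 fold change was 0.17 (SE 0.25, adjusted p = 0.884), and with siACAT1-1 in UM-UC-3 it was 0.65 (SE 0.41, adjusted p = 0.961), which passed the test only with the block (adjusted p = 0.0306).

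AIM2, the sensor of cytosolic double-stranded DNA, had 0 counts in all 9 UM-UC-3 libraries, which together held 265652510 reads and allow a level of up to 0.0113 CPM (counts scaled to the library total; 3 counts of the total, a limit that covers counting error only). In T24 cells it had 7 counts in all, 0, 2 and 0 in replicates 1, 2 and 3 with siNC, 0, 1 and 0 with siACAT1-1 and 0, 2 and 2 with siACAT1-2. It is the 1 of the 9 genes that did not pass the filter on low counts and it entered no test.

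PYCARD, the gene of the adaptor ASC, separated the lines almost completely. In UM-UC-3 cells its counts in replicates 1, 2 and 3 were 0, 4 and 1 with siNC, 0, 0 and 0 with siACAT1-1 and 1, 0 and 0 with siACAT1-2, 6 counts in all. In T24 cells they were 192, 212 and 173 with siNC, 170, 143 and 187 with siACAT1-1 and 235, 124 and 214 with siACAT1-2, 1650 counts in all, at 2.65 to 4.87 RPKM. All 9 T24 libraries were above all 9 UM-UC-3 libraries, as was the case for 15.1% of all genes tested. PYCARD passed the filter on low counts only through T24 cells, so this is a description. In T24 cells siACAT1-1 gave a log2 fold change of -0.042 (SE 0.37, adjusted p = 0.995) and siACAT1-2 one of 0.039 (SE 0.37, adjusted p = 1.00). No fold change with an ACAT1 siRNA is given for UM-UC-3 cells, although their 6 reads enter the mean knockdown effect and the difference between the lines. PYCARD lies on chromosome 16 from 31201485 to 31203450, and 991 of its exon bases (59.7%) are also exon of PYCARD-AS1 on the opposite strand. PYCARD-AS1 was at 0 to 1 count in UM-UC-3 and 64 to 117 counts in T24 libraries, and because the strand setting of the counting is not given in the sources used here, reads of the overlapping genes cannot be told apart with certainty.

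GSDMD, the gene of the pore-forming substrate gasdermin D, had overlapping levels in all groups. In UM-UC-3 cells it was at 4.67, 4.17 and 6.26 RPKM in replicates 1, 2 and 3 with siNC, at 4.02, 4.82 and 3.89 RPKM with siACAT1-1 and at 4.56, 5.32 and 4.46 RPKM with siACAT1-2. T24 cells were at 6.33, 4.78 and 7.15 RPKM with siNC, at 5.23, 4.39 and 7.34 RPKM with siACAT1-1 and at 4.75, 5.02 and 4.90 RPKM with siACAT1-2. All knockdown groups overlapped with their controls, with a mean log2 fold change of -0.19 (SE 0.13, adjusted p = 0.659). It was lower in 8 and higher in 4 of 12 pairs with the same number.

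IL18, which encodes the cytokine matured by caspase-1, was among the most abundant members and varied more between replicates than between siRNAs. UM-UC-3 cells were at 44.3, 18.9 and 30.6 RPKM in replicates 1, 2 and 3 with siNC, at 51.7, 17.0 and 25.3 RPKM with siACAT1-1 and at 29.3, 26.7 and 39.6 RPKM with siACAT1-2. The T24 libraries were at 33.1, 10.7 and 24.1 RPKM with siNC, at 45.7, 8.45 and 25.2 RPKM with siACAT1-1 and at 34.5, 15.7 and 29.5 RPKM with siACAT1-2. Replicate 2 was the lowest of its group in all 6 groups, and every knockdown group overlapped with its control. The mean log2 fold change was 0.11 (SE 0.34, adjusted p = 0.967), and it remained outside the threshold with the block (adjusted p = 0.606).

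Over the 6 members that passed the filter and were tested in the knockdown contrasts (CASP4, CASP5, GSDMD, PYCARD, NLRP1 and IL18), 0 passed edgeR's test in the mean knockdown effect, where 0.223% of all genes were called. At an unadjusted p under 0.05 there were 2, CASP4 and PYCARD, beside 2201 of all 20144 genes. DESeq2 called 1, CASP4, beside 315 of all genes. PYCARD had 5 counts with siNC and 1 with the ACAT1 siRNAs in UM-UC-3 cells. With the block, 1 of 6 was called, CASP4, against 12.4% of all genes. In the single comparisons the count was 0 of 6 in each of the 4, with 0.00993% and 0.0546% of all genes called with siACAT1-1 and siACAT1-2 in UM-UC-3 and 0.124% and 0.268% in T24 cells. Of the 6, 1 had an unadjusted p under 0.05 in each comparison. It was PYCARD with siACAT1-1 in UM-UC-3 (0 counts against 5 with siNC) and CASP4 in the other 3. Over all 20144 genes, such p-values numbered 1075 and 777 in UM-UC-3 and 2325 and 1700 in T24 cells. DESeq2 called 0 of the 6 in each, beside 18, 37, 393 and 251 of all genes in the same order. With the block it was 1 of 6 in each, NLRP1 with siACAT1-1 in UM-UC-3 (3.06% of all genes called) and CASP4 in the other 3 (1.36%, 13.9% and 8.48%).

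The variance of log2 CPM among the 9 libraries of a line was split into shares that go with the siRNA and with the replicate number, as a description. For CASP1, which was chosen for its rise, the siRNA took 90.4% and the replicate number 2.56% in T24 cells, and 58.3% and 34.8% in UM-UC-3 cells. For CARD16 they took 79.0% and 3.67% in T24 and 79.5% and 5.92% in UM-UC-3 cells. IL18 had the reverse, with 2.76% for the siRNA and 91.1% for the replicate number in T24 and 1.04% and 65.6% in UM-UC-3 cells. CASP5 was like IL18 (91.3% and 83.4% for the replicate number in UM-UC-3 and T24), while CASP4 had 54.6% and 53.6% for the siRNA and 34.5% and 34.1% for the replicate number, in UM-UC-3 close to the shares of CASP1. The median of all genes tested was 25.3% and 25.2% for the siRNA and 38.4% and 44.4% for the replicate number. What a replicate number marks is not given in the labels.

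**Figure D4:**
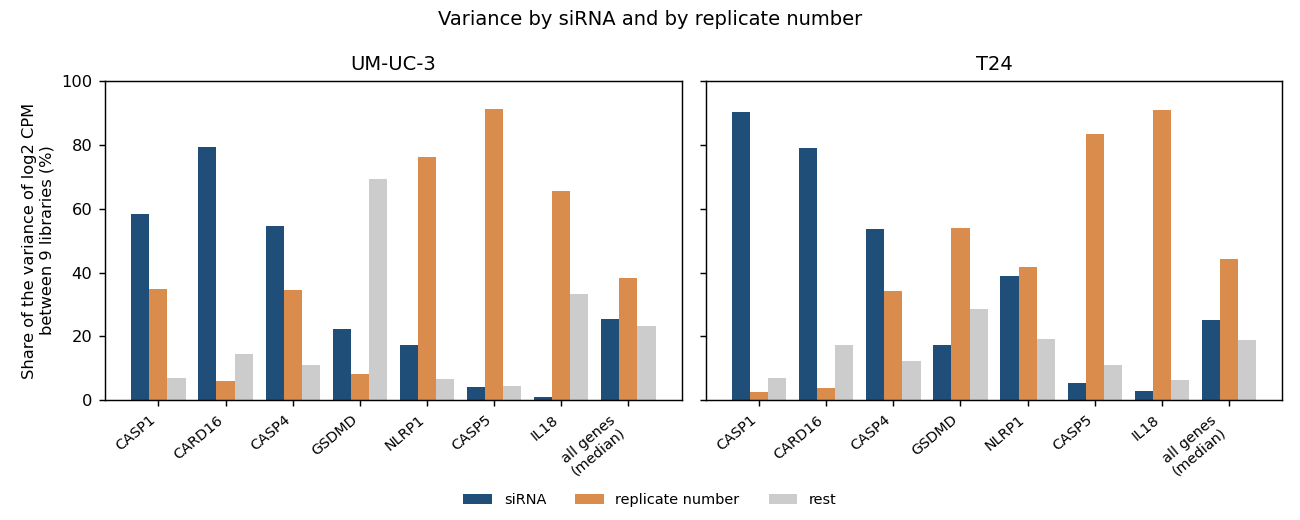
Share of the variance of log2 CPM among the 9 libraries of a line (vertical axis, %) that goes with the siRNA, with the replicate number and with neither, per gene. The siRNA bar is the tallest for CASP1, CARD16 and CASP4 in both lines, and the replicate bar is the tallest for NLRP1, CASP5 and IL18.

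Between the lines at baseline (siNC), 3 of the 8 tested members differed, PYCARD, CASP4 and CARD16, where 44.3% of all genes were called, so this share is near the background. PYCARD was lower in UM-UC-3 than in T24 cells (log2 difference -6.72, SE 0.58, adjusted p = 2.9e-07), with 5 against 577 counts in the 3 siNC libraries of each line. It passed the filter on low counts only through T24 cells. Its call could therefore take only this direction and is read as a description. The size of this difference rests on those 5 counts, and without replicate 2 of UM-UC-3 siNC, which held 4 of them, it was -8.21 (-6.78 to -6.22 without any other library). CASP4 was lower as well (-2.04, SE 0.27, adjusted p = 1.4e-05, at 6.61 ± 1.71 against 28.4 ± 12.7 RPKM, SD, n = 3 each). All 9 T24 libraries were above all 9 UM-UC-3 libraries for CASP4 too, as for 15.1% of all genes tested. CARD16 went the other way, 3.51-fold higher in UM-UC-3 (log2 difference 1.81, SE 0.34, adjusted p = 3.6e-04, at 1.24 ± 0.260 against 0.368 ± 0.145 RPKM, SD, n = 3 each). These 3 calls held in all 18 fits that left out 1 library, with the same limit from the filter for PYCARD. GSDMD (-0.24, SE 0.22, adjusted p = 0.397), NLRP1 (-0.45, SE 0.41, adjusted p = 0.403) and IL18 (0.48, SE 0.55, adjusted p = 0.506) did not pass, nor did CASP5 (adjusted p = 0.408). With the block NLRP1 (-0.57, adjusted p = 0.0033), IL18 (0.58, adjusted p = 0.0216) and CASP5 (adjusted p = 0.0360) were called as well (61.7% of all genes), but replicate numbers lie within a line, so in this contrast the block takes the spread between replicates out of the error.

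The order of the levels per length is given for each line over its 9 libraries, of which 6 had an ACAT1 siRNA. By the median RPKM of the 9 UM-UC-3 libraries it was IL18 (29.3), CASP4 (8.32), GSDMD (4.56), NLRP1 (2.86), CASP1 (2.18) and CARD16 (1.43), with CASP5, PYCARD and AIM2 at a median of 0. In that line the range of IL18 (17.0 to 51.7 RPKM) lay above that of CASP4 (4.90 to 14.3 RPKM), the range of CARD16 (0.997 to 2.29 RPKM) lay above that of CASP5 (0 to 0.198 RPKM), and the other neighbours from CASP4 to CARD16 overlapped. In T24 cells the order was CASP4 (40.6), IL18 (25.2), GSDMD (5.02), CASP1 (4.91), NLRP1 (4.10), PYCARD (3.78), CARD16 (0.518), CASP5 (0.0593) and AIM2 (a median of 0). There the range of IL18 (8.45 to 45.7 RPKM) lay above that of GSDMD (4.39 to 7.34 RPKM), PYCARD (2.65 to 4.87 RPKM) lay above CARD16 (0.241 to 1.44 RPKM), and all other neighbours overlapped. The place of CASP1 in T24 cells includes the rise for which it was chosen. With siNC alone it was at a mean of 2.09 RPKM there, below NLRP1 and PYCARD at 3.87 RPKM each. GSDMD lies on chromosome 8 from 143553207 to 143563062, NLRP1 on chromosome 17 from 5499427 to 5619424, AIM2 on chromosome 1 from 159062484 to 159147096 and IL18 on chromosome 11 from 112143251 to 112164117, outside the caspase cluster.

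The genes whose pattern was most like that of CASP1 were COPE (r = 0.865), HIST1H2BK (0.864), PAM (0.858), APOL1 (0.857) and B2M (0.849), by Pearson's correlation of log2 CPM over 18 libraries after subtraction of the mean of each line, among 15340 genes. These are descriptions without a test, since the points share libraries and siRNAs. CARD16 was at place 242 (r = 0.660) and CASP4 at place 259 (r = 0.653), whereas IL18 (0.117), PYCARD (-0.017), NLRP1 (-0.052) and GSDMD (-0.099) were lower still. COPE encodes a subunit of the COPI vesicle coat, and HIST1H2BK is one of many near-identical histone genes, so its reads are uncertain. B2M, the light chain of class I HLA molecules, had a mean log2 fold change of 0.35 (SE 0.096), APOL1, an interferon-induced apolipoprotein, of 1.00 (SE 0.23) and PAM, an enzyme that amidates peptides, of 0.53 (SE 0.099), given without a test because the genes were picked for following CASP1.

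The rest of the pathway was read from gene lists in the same way, in the mean knockdown effect, where the median log2 fold change of all 20144 genes was -0.0013 and 0.109% of all genes were called higher and 0.114% lower (5.95% and 6.46% with the block). In the list of inflammasome sensors, 7 of 10 measured genes were tested, 0 were called without the block, 2 were called higher with it, and the median log2 fold change was 0.29. The 2 were NLRP3, the sensor of membrane damage and crystals (0.73, SE 0.23, adjusted p = 0.254 without and 0.0078 with the block), and IFI16, a DNA sensor and the most abundant of the list (0.34, SE 0.25, adjusted p = 0.669 and 0.0028). NLRP3 was at 0.655 ± 0.225 RPKM (SD, n = 3) with siNC, 1.51 ± 0.322 for siACAT1-1 and 0.745 ± 0.233 for siACAT1-2 in UM-UC-3. In T24 cells it was at 1.30 ± 0.799, 2.37 ± 0.159 and 2.06 ± 0.875 RPKM.

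Of 14 genes for IL-1 family cytokines, their inhibitors and receptors, 7 were tested, with a median of 0.38. IL1RAP, the shared accessory chain of the IL-1 and IL-33 receptors, was the 1 called higher without the block (0.66, SE 0.11, adjusted p = 0.0189), and with it IL1R1, the signalling receptor of IL-1, was called as well (0.72, SE 0.25, adjusted p = 0.300 without and 0.0098 with the block). IL1RAP was at 0.412 ± 0.0722 RPKM (SD, n = 3) with siNC, 0.671 ± 0.118 for siACAT1-1 and 0.595 ± 0.0902 for siACAT1-2 in UM-UC-3. In T24 cells it was at 0.695 ± 0.0547, 1.14 ± 0.0650 and 1.15 ± 0.145 RPKM. IL1B, the most abundant of the list and the other cytokine that caspase-1 matures, ranged from 13.4 to 291 RPKM in T24 and from 0 to 0.253 RPKM in UM-UC-3 libraries, and its knockdown effect was 0.38 (SE 1.15, adjusted p = 0.969).

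In the list of inflammatory caspases, 3 of 4 genes were tested and the median was 0.87, and in that of the CARD-only genes 3 of 3 were tested and the median was 0.68. Both lists hold members whose values are described above, and the first holds CASP1, which was chosen for its rise. Of the gasdermins and the membrane rupture gene NINJ1, 5 of 7 were tested (median -0.026), 0 were called without the block, and DFNA5, the gene of gasdermin E, was called higher with it (0.36, SE 0.19, adjusted p = 0.504 without and 0.0052 with the block). Of the adaptor and direct regulators, 6 of 8 measured genes were tested (median 0.049) and 0 were called in either fit. DPP9, an inhibitor of NLRP1 and the most abundant of that list, had a log2 fold change of 0.19 (SE 0.080, adjusted p = 0.388).

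Of 12 transcription factors known to act on CASP1 or in interferon responses, 12 were tested (median 0.18) and 0 were called without the block. With it IRF9, the DNA-binding part of the interferon-stimulated complex (0.53, SE 0.20, adjusted p = 0.0018), and STAT3 (0.25, SE 0.098, adjusted p = 0.0462) were called higher and SP1 lower (-0.25, SE 0.094, adjusted p = 0.0194), while RELA, the most abundant, was at 0.22 (SE 0.11, adjusted p = 0.492 without the block). The fold changes and SEs in this paragraph are those without the block.

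Beside these changes, the epithelial keratins KRT7, KRT8 and KRT18 were called lower with the block (3 of 8 tested markers) and 0 of 8 without it. Their log2 fold changes with the block were -0.33, -0.19 and -0.31 (adjusted p = 0.0083, 0.0469 and 0.0042, edgeR quasi-likelihood test), where 6.46% of all genes were called lower. Without the block they were -0.31 (SE 0.34), -0.18 (SE 0.27) and -0.29 (SE 0.19). CD68 was called higher with the block (0.43, SE 0.48, adjusted p = 0.819 without and 8.0e-04 with the block), and the summed leukocyte and macrophage markers, nearly all CD68, were at 126 to 217 RPKM in UM-UC-3 and 15.9 to 169 RPKM in T24 libraries. The part of these markers in the values of CASP1, CASP4 and CARD16 was not tested, and PTPRC, CD14, LYZ, ITGAM and CSF1R were under 1 RPKM in every library.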

How the data were processed

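The data are 18 RNA-seq libraries (2 cell lines, 3 siRNAs, 3 replicates each). The authors prepared stranded libraries with unique molecular identifiers, trimmed reads (Trimmomatic 0.36), aligned them (STAR 2.5.3, GRCh38) and counted them per gene with featureCounts (Subread 1.5.1), per the labels and methods. The annotation release, the strand setting and the treatment of multi-mapping reads and of identifiers are not given in the sources used here. The deposited counts are raw counts per gene, and the deposited RPKM values were made by the authors from those counts, the gene length and the library total.

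Counts were tested with edgeR 4.0.16 under R 4.3.3 (TMM, filterByExpr, quasi-likelihood test), in 1 model with a coefficient for each of 6 groups, with Benjamini-Hochberg adjustment over 20144 genes and a threshold of 0.05. DESeq2 1.42.0, other size factors, no filter, a replicate block and leaving out each library were alternatives. Log2 CPM (here counts scaled to library sizes with TMM factors) used a prior count of 2. Log2 ratios of same-number pairs were scaled with TMM factors too and used 0.5. Exon 2 sequences came from the hg38 genome at GENCODE exon positions that are also in the deposited table.

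Same-number libraries of a line deviated together from their group means in all 9 pairs of UM-UC-3 (r 0.115 to 0.576) and all 9 of T24 (0.356 to 0.686). The 18 pairs of different number between groups of a line ran from -0.545 to 0.269 in UM-UC-3 and from -0.567 to 0.210 in T24. The ranges thus overlap in UM-UC-3 and not in T24. The numbers were taken to pair the libraries within a line, from the data and not from the labels. The members and lists were chosen with earlier results of these data known. Genes outside the members are named where a list gene was called in the mean knockdown effect with or without the block, was the most abundant of its list, or was among the 5 most like CASP1. One further gene list is not reported here.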

Additional observations from a re-analysis of the deposited data

Results flagged for a closer look

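The change of CARD16 against the control differed between the siRNAs, by 1.12 on the log2 scale over both lines (siACAT1-2 minus siACAT1-1, SE 0.23, adjusted p = 0.0163 from the edgeR quasi-likelihood test (Benjamini-Hochberg)), and the cause was not tested. With 3 libraries per group, no group was searched for a library that stands apart.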

How the results depend on the processing

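The number of genes called over the whole table moved with the replicate block, which raised it from 2 to 617 with siACAT1-1 and from 11 to 273 with siACAT1-2 in UM-UC-3, from 25 to 2799 and from 54 to 1708 in T24, from 45 to 2500 in the mean knockdown effect, from 0 to 21 for the difference between the lines and from 515 to 4141 for the difference between the siRNAs. DESeq2 called 18, 37, 393, 251, 315, 1 and 1298 genes in the same order, and the fit without the filter on low counts called 167, 58, 463, 180, 383, 29 and 884. With only the libraries of T24 fitted, 1 and 2 genes were called with siACAT1-1 and siACAT1-2. Without 1 library at a time, the counts ran from 2 to 4, 2 to 15, 2 to 458, 13 to 90, 6 to 158, 0 to 1 and 169 to 933, and from 7555 to 9170 for the lines at baseline (8924 with all libraries). The cause of these shifts was not tested. PYCARD with siACAT1-2 in T24 turned to -0.017 with the block, and CASP4 in the difference between the lines to 0.0076 without the filter. Without 1 library, PYCARD in T24 ran from -0.20 to 0.13 with siACAT1-1 and from -0.22 to 0.25 with siACAT1-2, IL18 in the mean from -0.066 to 0.33, and CASP4 from -0.37 to 0.16 between the lines and from -0.037 to 0.15 between the siRNAs. CARD16 with siACAT1-1 ran from -0.065 to 0.21 in UM-UC-3 and from -0.019 to 0.47 in T24. All 34 fold changes kept their direction with other size factors, and the 54 RPKM means moved by less than 1 SD with TMM library sizes. Depth limited AIM2, CASP5 and, in UM-UC-3, PYCARD.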

Other observations

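Between the lines at baseline (siNC), 44.3% of 20144 genes were called, 4425 genes higher in UM-UC-3 and the rest lower. The median log2 difference was 0.030. Among the CARD-only genes of the CASP1 cluster, CARD16 was called higher in UM-UC-3 (the edgeR quasi-likelihood test (Benjamini-Hochberg)). Of 7 IL-1 family genes, 1 was called higher and 4 lower by the same test. IL1A and IL1B, among the 4, had at most 10 and 24 counts in a UM-UC-3 library. Both passed the filter on low counts through T24 cells, so their calls could hardly take the other direction. IL18 is among the 7 and was not called (adjusted p = 0.506). CARD17 and CARD18 are named here after their values were seen. CARD17 had 33 counts in the 3 siNC libraries of UM-UC-3 and 4 in those of T24. CARD18 had 2 to 19 counts in the 9 UM-UC-3 libraries and 0 in all 9 T24 libraries. It passed the filter on low counts only through UM-UC-3 cells, so a call could take only this direction. The counts of CARD17 and CARD18 are therefore given as a description. IFI16 was 5.93-fold lower in UM-UC-3 than in T24 (log2 difference -2.57, SE 0.42, adjusted p = 1.1e-04).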
